A study of Danio rerio with 2 samples.

Results

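The transcripts of 4 genes that lie downstream of the kinase Akt were followed in zebrafish larvae with and without NOD1. They are the Foxo transcription factors foxo1a and foxo3b and the intrinsic apoptosis genes badb and casp9. They were taken by name from the 84 pathway genes of a real-time PCR plate. Whole larvae were pooled at 10 days post fertilization (dpf). WT larvae came from wild-type AB/TU zebrafish. NOD1-deficient larvae were homozygous NOD1-1IS-/- mutants, made with Cas9 and carrying an insertion of 1 bp in the gene of the pattern recognition receptor NOD1, and this 1 mutant line was the only one used. Each genotype had 3 biological replicates, each a pool of 200 to 250 larvae on its own plate. The well gives a threshold cycle (Ct), the cycle at which the product crosses a set level, so that a Ct lower by 1 stands for a template about 2 times as abundant.

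Akt is the kinase that carries the survival signal of phosphoinositide 3-kinase. In mammals it phosphorylates Foxo factors, which are then bound by 14-3-3 proteins and held outside the nucleus, where they cannot drive their target genes. It also phosphorylates Bad, a BH3-only protein that otherwise blocks the survival protein Bcl-xL, and human caspase-9, the initiator caspase that is switched on at the apoptosome after mitochondria release cytochrome c. This control acts on proteins already made. The PCR plate read the messenger RNA alone and says nothing of phosphorylation. RefSeq annotates foxo1b, foxo3a, foxo4, foxo6a, foxo6b and bada beside the 4 genes, and none of these 6 was assayed here, so the values belong to 1 copy of each duplicated gene. The accessions that the plate gives for the 4 assays all matched the gene of the same name in RefSeq (GRCz12tu).

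Levels are given as delta Ct, the number of cycles by which a gene trails the average of the reference genes hprt1, nono and rpl13a of its own array. A lower delta Ct is a higher level, and log2 changes are written so that a positive value is a higher level in NOD1-deficient larvae. Before scaling, these 3 reference genes averaged 19.8 ± 0.144 cycles on the WT arrays and 19.5 ± 0.107 on the NOD1-deficient arrays (SD, n = 3 each), or 0.30 earlier in the mutants (exact permutation test, two-sided, p = 0.1, the smallest value 3 arrays against 3 can give). Taken singly, their log2 differences in raw Ct were 0.16 for hprt1, 0.46 for nono and 0.27 for rpl13a. The other reference genes of the plate went the opposite way, acta1b at -0.61 and b2m at -0.20. The 0.30 is thus not a shift common to all reference genes. The positive PCR control wells came earlier in the mutants, by 0.15 cycles (exact permutation test, two-sided, p = 0.1). Their mean Ct was 19.66 ± 0.0126 on WT arrays and 19.51 ± 0.0574 on NOD1-deficient arrays (SD, n = 3 each). What part of the 0.30 lies in the plates rather than the larvae was not tested. WT replicate 2 stood apart from the other WT arrays in delta Ct. On it, 76 of the 84 genes had a delta Ct above the WT mean, with a median deviation of 0.13 cycles. The counts on WT replicates 1 and 3 were 14 and 21 genes. Deviations from a shared mean balance out, so these counts are not independent. The reference genes of WT replicate 2 came earlier on average than those of the other WT arrays, which raises all its delta Ct values. The number of arrays limits the precision of each value, and nod1 itself was not among the assays.

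The 4 genes spanned a wide range of levels, and their order was the same on 6 of 6 arrays. The highest level was that of foxo3b, followed by casp9, foxo1a and badb. In WT larvae foxo3b had a mean delta Ct of -0.25 ± 0.158, so its product appeared slightly before the mean of the reference genes. It was the 5th earliest of the 84 pathway genes. The delta Ct of casp9 was 1.46 ± 0.203 (21st), that of foxo1a 2.26 ± 0.225 (33rd) and that of badb 5.07 ± 0.110 (68th; SD, n = 3 each), where the median of the 84 genes was 3.06. In NOD1-deficient larvae the same genes were 6th, 24th, 34th and 63rd.

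All neighbours in this order were separated by more than their spread. The smallest step was that between casp9 and foxo1a, which was 0.80 ± 0.0433 cycles within WT arrays and 1.02 ± 0.184 within NOD1-deficient arrays (SD, n = 3 each) and never under 0.75 on a single array. From foxo3b to casp9 the step was 1.71 ± 0.272 cycles in WT, and from foxo1a to badb 2.81 ± 0.335. Between the Foxo factors, the log2 level of foxo1a minus that of foxo3b was -2.51 ± 0.268 on WT arrays and -2.90 ± 0.375 on NOD1-deficient arrays (SD, n = 3 each). Steps between assays assume that all primers amplify equally well, which was not measured here.

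On this scaling, none of the 4 genes passed the test between the genotypes over all pathway genes. With limma and adjustment over the 84 genes, 0 of 4 had an adjusted p under 0.05, where 19% of the 84 genes did (3.57% higher and 15.5% lower without NOD1). Without adjustment, 2 of the 4 had a p under 0.05, badb with a value above 0 and foxo1a with a value below 0, against 31% of all genes. The replicates of the genotypes did not overlap in 1 of the 4 genes, badb, against 31% of all genes. Shares of 4 genes are coarse, and nothing is read from them. In RNA of whole larvae, fewer cells of a type and less RNA per cell cannot be told apart.

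The Foxo factors were read first. Mammalian FoxO1 is best known for the insulin response of liver and other metabolic tissues. The delta Ct of foxo1a was 2.13, 2.52 and 2.14 in WT replicates 1 to 3, and 2.62, 2.36 and 2.76 in the NOD1-deficient replicates. WT replicate 2 lay within the NOD1-deficient values, and the other WT arrays lay above them in level. The log2 change was -0.32 ± 0.158 (SE), or a NOD1-deficient level 0.802 times that of WT, with a 95% interval of -0.63 to -0.01 and an adjusted p of 0.153 in limma (two-sided exact permutation p = 0.2). From the gene's own replicates the SE was 0.174 and the interval ran from -0.80 to 0.17. Before scaling, its Ct was nearly equal in both genotypes, 22.04 ± 0.0981 and 22.1 ± 0.195 (SD, n = 3 each), a log2 difference of -0.02. The value of -0.32 is thus the Ct difference minus the 0.30 by which the mean of hprt1, nono and rpl13a differed.

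Mammalian FoxO3 is known as an inducer of genes for cell death, stress resistance and cell cycle arrest. The delta Ct of foxo3b was -0.41, -0.24 and -0.09 in WT and -0.43, -0.12 and -0.43 in NOD1-deficient larvae. The genotypes overlapped over almost their whole range. The log2 change was 0.08 ± 0.158 (SE), with a 95% interval of -0.24 to 0.39 and an adjusted p of 0.807 in limma (two-sided exact permutation p = 0.5). On this scaling the interval contains folds from 0.849 to 1.31, so a change of 1.5-fold in either direction lay outside it. The gene's own replicates gave an interval of -0.31 to 0.46. Neither interval covers the choice of reference genes, under which the log2 change ran from -0.09 (nono alone) to 0.99 (acta1b alone).

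The apoptosis genes were read next. The delta Ct of badb was 5.13, 4.95 and 5.14 in WT and 4.73, 4.63 and 4.90 in NOD1-deficient larvae. All 3 NOD1-deficient values lay below the WT values, and WT replicate 2 and NOD1-deficient replicate 3 came closest to each other. The raw Ct was separated too, at 24.95, 24.56 and 25.04 against 24.09, 24.18 and 24.42. Raw Ct also holds any shift shared by whole arrays. The mean of hprt1, nono and rpl13a came 0.30 earlier in the mutants, while acta1b and b2m came later. The raw Ct of casp9 was likewise separated, at 21.19, 21.31 and 21.21 against 20.90, 21.11 and 21.12. The share of all genes separated in raw Ct was not counted, so nothing is read from it. The log2 change of badb was 0.32 ± 0.158 (SE), or 1.25-fold, with a 95% interval of 0.01 to 0.63 and an adjusted p of 0.151 in limma (two-sided exact permutation p = 0.1, the smallest possible). Its own replicates gave an SE of 0.101 and an interval of 0.04 to 0.60. Only 5 of the 84 pathway genes had a larger positive change.

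The delta Ct of casp9 was 1.37, 1.69 and 1.31 in WT and 1.54, 1.55 and 1.60 in NOD1-deficient larvae. The 3 NOD1-deficient arrays fell between the WT values with an SD of 0.0282 cycles, while the SD of the WT arrays was 0.203, with WT replicate 2 apart from the others. The log2 change was -0.10 ± 0.158 (SE), with a 95% interval of -0.42 to 0.21 and an adjusted p of 0.713 in limma (two-sided exact permutation p = 0.4). It was 0.01 from the median log2 change of the 84 genes, -0.11. Without WT replicate 2, the log2 change of foxo1a became -0.45 (adjusted p = 0.0456) and that of badb 0.38 (adjusted p = 0.0478), so that both passed in limma, and that of casp9 became -0.22 (adjusted p = 0.159). Over the plate 21 of the 84 genes then passed, 5 higher and 16 lower, against 16 with all arrays.

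**Figure D1:**
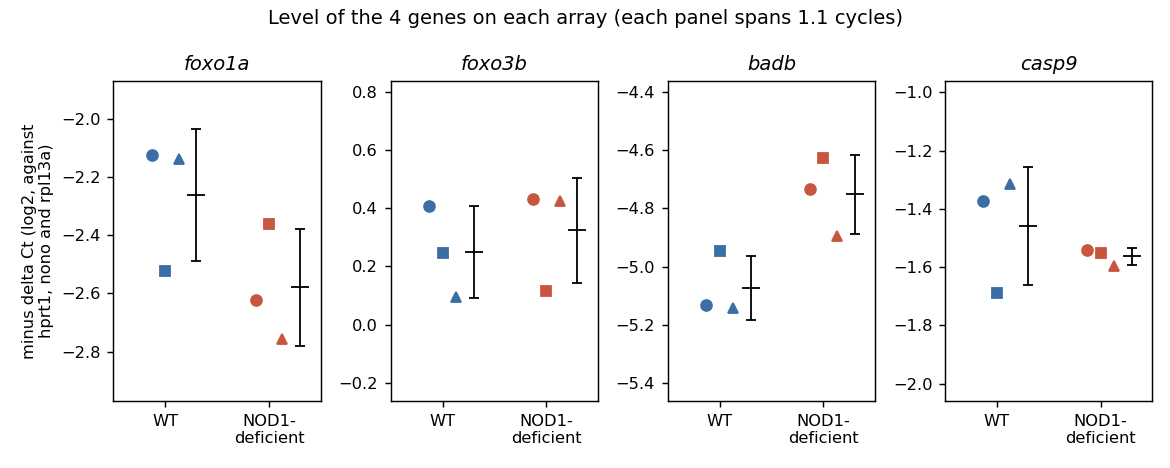
Level of foxo1a, foxo3b, badb and casp9 as minus delta Ct (log2 scale, higher is more transcript) on each array, with circles, squares and triangles for replicates 1, 2 and 3 and black bars for mean ± SD (n = 3). Only badb has its NOD1-deficient points all above its WT points, and in foxo1a and casp9 the square of WT replicate 2 lies below the other WT points.

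Among all pathway genes the 4 were spread over the range of changes rather than grouped. Ordered from the most lowered gene up, foxo1a was 19th of 84, casp9 46th, foxo3b 68th and badb 79th. Counted from the plate's median change, they stood at -0.21 for foxo1a, 0.01 for casp9, 0.19 for foxo3b and 0.43 for badb. The median of the 4 changes was -0.01 against -0.11 over the 84 genes, of which 25 had a value above 0 and 59 below. The SD between replicates ran from 0.124 cycles in badb to 0.213 in foxo1a, around a median of 0.159 over the plate. From the smallest SD up, badb was 17th of 84 and foxo1a 69th.

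**Figure D2:**
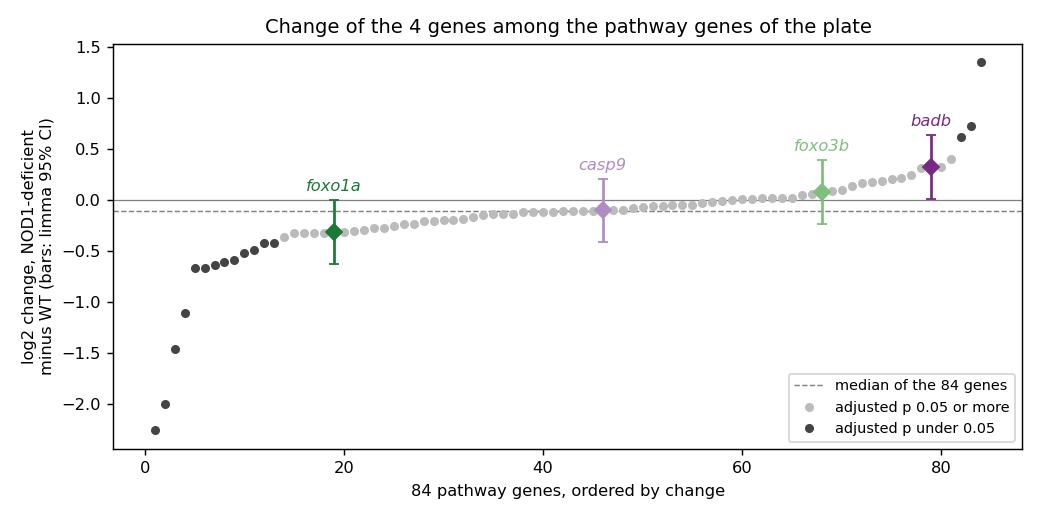
Log2 change (NOD1-deficient minus WT, y axis) of the 84 pathway genes in order of change (x axis), with the 4 genes as diamonds and limma 95% confidence intervals as bars. The 4 lie at places 19, 46, 68 and 79, and none is among the 16 genes with an adjusted p under 0.05 (dark points).

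The Foxo factors and the apoptosis genes were then set against each other within each array, where the reference genes cancel. On this scale the mean of the Foxo factors lay above the mean of the apoptosis genes by 2.39, 2.18 and 2.21 in WT and by 2.04, 1.97 and 2.08 in NOD1-deficient larvae (log2). The group means were 2.26 ± 0.117 and 2.03 ± 0.0586 (SD, n = 3 each), a log2 change of -0.23, and the values of the genotypes did not overlap. This is a description of a mean over chosen genes and was given no test. How often other sets of genes on the plate separate was not counted, so nothing is read from the lack of overlap. The pairs of single genes show where it came from.

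The pair that moved most was foxo1a against badb. The log2 difference foxo1a minus badb was 3.01, 2.42 and 3.004 in WT and 2.11, 2.26 and 2.14 in NOD1-deficient larvae. The 3 NOD1-deficient values lay below all WT values, and WT replicate 2 was the nearest of the WT arrays. The change was -0.64 ± 0.199 (SE), with a 95% interval of -1.19 to -0.09 from the pair's own replicates (two-sided exact permutation p = 0.1, or 0.45 after Benjamini-Hochberg adjustment over the 6 pairs). With each replicate left out in turn it ran from -0.83, without WT replicate 2, to -0.54. It was the only 1 of the 6 pairs whose genotypes did not overlap.

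The other pairs did not separate. Between the Foxo factors, foxo1a minus foxo3b changed by -0.39 (interval -1.13 to 0.35, exact permutation p = 0.3). Between the apoptosis genes, badb minus casp9 changed by 0.43 (interval -0.11 to 0.96, exact permutation p = 0.2). In size, the change within either class was larger than the -0.23 between the classes. The difference foxo1a minus casp9 changed by -0.21 (interval -0.52 to 0.09, exact permutation p = 0.3) and was tight in WT, at 0.0433 (SD, n = 3). The differences foxo3b minus badb and foxo3b minus casp9 changed by -0.25 and 0.18, with intervals of -0.82 to 0.32 and -0.35 to 0.71 (exact permutation p = 0.4 and 0.5). No pair had an adjusted p under 0.45, and these intervals do not show that the genes of a pair changed alike.

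**Figure D3:**
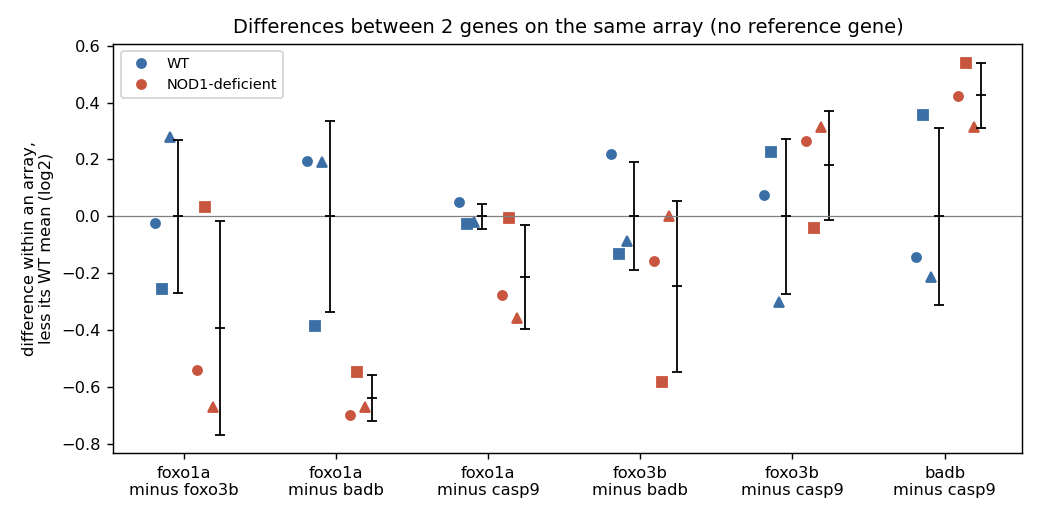
Log2 difference between 2 of the 4 genes on the same array, less its WT mean (y axis), for the 6 pairs (x axis), with WT in blue, NOD1-deficient in red, circles, squares and triangles for replicates 1, 2 and 3 and bars for mean ± SD (n = 3). Only foxo1a minus badb has groups that do not overlap, with a change of -0.64. How often other pairs of genes on the plate separate was not counted.

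The direction of 3 of the 4 genes turned on the choice of reference genes. A different choice adds 1 constant to the log2 changes of all genes, so the order of the 4 stayed as above. The change of badb was above 0 under each of 9 other scalings and passed as higher in 6 of them, among them all 5 reference genes of the plate (0.60, adjusted p = 0.000396) and hprt1 alone (0.46, adjusted p = 0.0134). It did not pass with nono alone (0.16, adjusted p = 0.456), rpl13a alone (0.35, adjusted p = 0.155) or with the positive PCR control wells (0.46, adjusted p = 0.0818). The change of foxo1a was below 0 in 7 of the 9 and passed as lower with nono alone (-0.48, adjusted p = 0.0348), yet with acta1b alone it passed as higher (0.59, adjusted p = 0.0444). The change of foxo3b was above 0 in 8 of the 9 and passed as higher with b2m alone (0.57, adjusted p = 0.00557) and acta1b alone (0.99, adjusted p = 0.00234). That of casp9 was above 0 in 7 of the 9 and passed with acta1b alone (0.81, adjusted p = 0.00897).

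**Figure D4:**
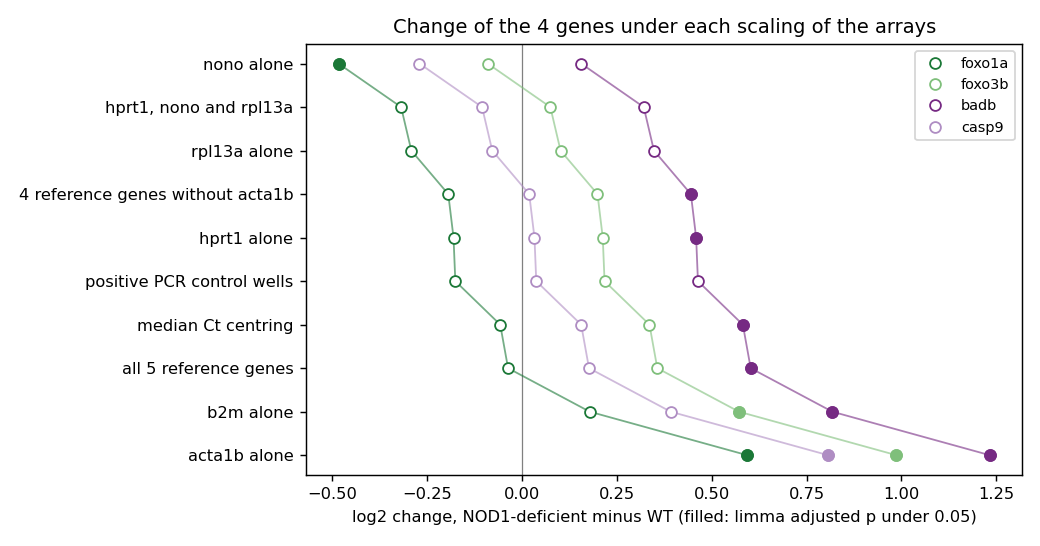
Log2 change of the 4 genes (x axis) when the arrays are scaled in 10 ways (y axis), with filled points for a limma adjusted p under 0.05. All 4 genes shift together, from nono alone, where foxo1a is at -0.48, to acta1b alone, where badb is at 1.23.

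Genes that act on these 4 proteins, or that Foxo factors act on, were counted from lists drawn up by known function. Of 10 genes for kinases of a mammalian Foxo, Bad or caspase-9 protein and a 14-3-3 protein, 1 was lower, 0 were higher and 9 did not pass, where 19% of the 84 genes passed (15.5% lower and 3.57% higher). The gene that fell was pak1, a kinase that phosphorylates Bad in mammalian cells, at -0.43 ± 0.158 (log2 change, SE), with an adjusted p of 0.0422 in limma. Its adjusted p was 0.220 with a separate variance for each gene. The call held in 6 of 20 alternatives and under 1 of the 9 other scalings (nono alone), and its value was above 0 with acta1b alone (0.49, adjusted p = 0.0946) and b2m alone (0.07, adjusted p = 0.705). The kinase genes akt1 (-0.21, adjusted p = 0.408) and akt2 (-0.23, adjusted p = 0.336) did not pass, nor did sgk1 (0.01, adjusted p = 0.968), whose product also phosphorylates FoxO3, or ywhah (-0.05, adjusted p = 0.86), which encodes the 14-3-3 protein eta. The median log2 change of the 10 was -0.20, against -0.11 over the 84 genes.

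Of 11 genes for the steps that set the activity of Akt, 2 were lower, 0 were higher and 9 did not pass, near the 15.5% lower and 3.57% higher of the whole plate. The gene that fell most was pik3r2, which encodes a regulatory subunit of phosphoinositide 3-kinase. Its mean delta Ct was 3.03 in WT against 4.49 in the mutants, a log2 change of -1.46 ± 0.158 (SE) with an adjusted p of 8.63e-17 in limma and 0.0121 with a separate variance for each gene. It passed under 8 of the 9 other scalings, the exception being acta1b alone (-0.55, adjusted p = 0.0597). The study itself named this gene from these arrays, so it is no independent evidence for the list. The second was irs1, the adaptor of the insulin receptor (-0.59, adjusted p = 0.00147), whose genotypes overlapped and whose adjusted p was 0.295 with a separate variance. It passed under 4 of the 9 other scalings, turned above 0 with acta1b alone (0.32, adjusted p = 0.276), and did not pass without WT replicate 3 (-0.43, adjusted p = 0.0997). The kinase that activates Akt, pdpk1b (-0.12, adjusted p = 0.707), did not pass. The median log2 change of the 11 was -0.12.

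Of 3 genes known as targets of mammalian Foxo factors, 1 was higher and 2 did not pass, where 3.57% of the 84 genes were higher and 15.5% lower. The gene that rose was faslg, which encodes the death receptor ligand FasL and is switched on by FoxO3 in mammals. Its mean delta Ct went from 10.5 ± 0.254 in WT down to 9.92 ± 0.156 in the mutants (SD, n = 3 each). The log2 change was thus 0.62 ± 0.158 (SE), with an adjusted p of 0.00093 in limma and 0.137 with a separate variance for each gene. It passed under 9 of 9 other scalings, but not with limma's trend and robust options (adjusted p = 0.0565) or without WT replicate 3 (0.47, adjusted p = 0.063). The cell cycle genes ccnd1, which mammalian Foxo factors repress, and rbl2, which they induce, had log2 changes of -0.24 (adjusted p = 0.325) and -0.31 (adjusted p = 0.157). The median of the 3 was -0.24.

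The genes whose profile over the 6 arrays was closest to each of the 4 were found by the root mean square (RMS) difference after each gene was centred on its own mean. The closest to foxo1a were srfa, akt1 and tirap, at 0.0706 to 0.0952 cycles, against a median of 0.228 over the other pathway genes. Closest to foxo3b were prkcbb, rasa1a and igf1, at 0.102 to 0.122 cycles. Closest to badb were eif4ebp1, waslb and hspb1, at 0.104 to 0.153 cycles. Closest to casp9 were mtor, myd88 and pik3r1, at 0.0555 to 0.063 cycles. None of these 12 genes had an adjusted p under 0.05 in limma. The distance includes the difference between genotypes, so genes close to the 4 could hardly pass, and nothing is read from this. None of the 4 was among the 3 closest genes of another, and the nearest pair among them was foxo1a with casp9, at 0.152 cycles. The distances describe 6 arrays that share their reference genes.

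Some markers of cell types that whole larvae contain stood apart between the genotypes on this scale. The skeletal muscle actin acta1b was detected early, at a delta Ct of -3.20 to -2.99 in WT, and was later in NOD1-deficient larvae, at -2.47 to -1.64. As a reference gene it was outside the limma fit. Of 4 genes listed as leukocyte markers, btk was lower (log2 change -0.66, adjusted p = 0.000369), faslg was higher as given above, and pik3cg (0.09, adjusted p = 0.745) and tirap (-0.33, adjusted p = 0.149) did not pass. The delta Ct of btk was 5.68 to 6.06 in WT and 6.41 to 6.73 in NOD1-deficient larvae. The adjusted p of btk was 0.109 with a separate variance for each gene. In limma btk passed as lower under 6 of the 9 other scalings. It did not pass with b2m alone (-0.17, adjusted p = 0.385) or the positive PCR control wells (-0.52, adjusted p = 0.0517). Its value was above 0 with acta1b alone (0.25, adjusted p = 0.387). The part of these differences in the values of foxo1a, foxo3b, badb and casp9 was not tested.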

How the data were processed

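Per the labels and methods, TRIzol RNA (1000 ng) from each pool was reverse transcribed with SuperScript III and amplified with SYBR Green for 40 cycles on a LightCycler, on a Qiagen PI3K-AKT array. The authors deposited raw Ct, a score in cycles with no normalization, for 3 plates per genotype (96 wells each). The labels hold 1 sample per genotype and name 3 biological replicates of each, as which the plates were read. Baseline and threshold settings are not given in the sources used here. They also deposited a ratio per genotype, 2 to the power of minus delta Ct. These deposited ratios followed from the raw Ct to within 1.91e-06 (log2) when Ct over 35 were set to 35 and hprt1, nono and rpl13a served as reference genes, so both settings were kept. The deposited fold changes hold the authors' own comparison and were not used.

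Minus delta Ct of the 84 pathway genes was fitted with limma 3.58.1 in R 4.3.3 (two-sided, Benjamini-Hochberg over 84 genes, threshold 0.05). The prior degrees of freedom came out as infinite, so that 1 SD (0.194) and 1 SE (0.158) served all genes. The fit was tested on simulated data. The simulated noise was independent between genes and had 1 SD for all of them, as the fit itself assumes. The simulation thus did not test shifts shared by whole arrays or genes of unequal spread. Genes named were the 4 members, akt1 and akt2, the list genes that passed, the 3 nearest profiles of each member, the reference genes and markers. In addition, sgk1, ywhah, pdpk1b, ccnd1 and rbl2 were named after their values were seen. Members and lists were chosen with earlier results of these data known, and 1 list gene is not reported by name. Alternatives were other reference genes and scalings, the Ct ceiling, a limit of 30 on the mean Ct, other variance models, a replicate block and leaving out each array. Leaving out arrays for the pairs was added after seeing the data.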

Additional observations from a re-analysis of the deposited data

How the results depend on the processing

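With 3 arrays per genotype, changes as small as those of the 4 genes hang on the scaling. A scaling adds 1 constant to all log2 changes, whose median over the 84 genes was -0.11. Scaled to acta1b only, this median was 0.80, foxo1a turned to 0.59, foxo3b and badb rose to 0.99 and 1.23, casp9 turned to 0.81, and 4 of the 4 genes passed. Scaled to b2m only, the median was 0.38, foxo1a turned to 0.18, casp9 turned to 0.39, and 2 passed, foxo3b (0.57) and badb (0.82). Scaled to nono only, the median was -0.28, foxo3b turned to -0.090, and 1 passed, foxo1a (-0.48). In the next 4 scalings badb was the 1 gene that passed and casp9 turned above 0. These were all 5 reference genes (median 0.17, badb 0.60, casp9 0.18), hprt1 only (median 0.026, badb 0.46, casp9 0.033), the 4 reference genes without acta1b (median 0.012, badb 0.45, casp9 0.020) and median Ct centring (median 0.15, badb 0.58, casp9 0.16). With the positive PCR control wells the median was 0.031 and casp9 turned to 0.038, and 0 passed. The Foxo minus apoptosis change does not depend on the scaling.

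The 16 genes called over the plate (3 higher and 13 lower) became 72 under acta1b (70 higher and 2 lower), 41 under b2m (37 higher and 4 lower), 27 under nono (3 higher and 24 lower), 25 with median Ct centring (18 higher and 7 lower), 10 with the positive PCR control wells (5 higher and 5 lower) and 6 without moderation. The split was 16 higher and 6 lower under all 5 reference genes, and 7 higher and 9 lower under hprt1 or the 4 genes without acta1b. The kinase genes called (1 lower) became 9 higher under acta1b, 4 higher under b2m, 3 lower under nono, 3 higher with median Ct centring, 1 higher under all 5 reference genes, and 0 under hprt1, rpl13a, the 4 genes without acta1b, the control wells, the model without moderation or the replicate block. The upstream genes called (2 lower) became 8 higher and 0 lower under acta1b, 3 higher and 1 lower under b2m (4 in all), 2 higher and 1 lower under all 5 reference genes, 1 higher and 1 lower with median Ct centring, 3 lower under nono, and 1 lower under the control wells or without moderation. The Foxo target genes called (1 higher) became 3 higher under acta1b, 1 higher and 1 lower under nono (2 in all) and 0 without moderation or in limma with trend and robust. Under acta1b, pak1, irs1 and btk turned to 0.49, 0.32 and 0.25, and under b2m pak1 turned to 0.071. A scaling also changed the spread between arrays, and the limma SE of badb ran from 0.119 (median Ct centring) to 0.282 (acta1b alone). With hprt1 alone badb passed at 0.459 (SE 0.146), but with the control wells it did not at 0.464 (SE 0.159). The reason that single genes passed or failed was not tested further.

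With each replicate left out in turn, the log2 change ran from -0.45 to -0.23 for foxo1a, from -0.0024 (without WT replicate 3) to 0.18 for foxo3b, from 0.26 to 0.39 for badb and from -0.22 to -0.03 for casp9. From 0 to 2 of the 4 genes passed (2 without WT replicate 2), as did 10 (without WT replicate 3) to 21 of the 84 genes, 0 to 1 kinase genes, 1 to 2 upstream genes and 0 to 1 Foxo target genes (fewest without WT replicate 3 for both). No pairing was seen in the replicate numbers (correlations of deviations 0.116, 0.0851 and -0.269). With the replicate block, badb kept its change of 0.32 (adjusted p = 0.211), 0 of the 4 genes passed and 14 of the 84 did. A Ct ceiling of 40, or leaving out genes of mean Ct over 30, changed none of these 4 calls.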
